A study of Mus musculus with 6 samples.

Results

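Macrophages use arginine in competing ways. The inducible nitric oxide synthase NOS2 turns it into nitric oxide and citrulline with tetrahydrobiopterin as a cofactor, and arginases turn it into ornithine, from which polyamines are made. Itaconate is made from the citrate cycle intermediate cis-aconitate by the enzyme that Acod1 encodes, and it is known as an inhibitor of succinate dehydrogenase in activated macrophages. The genes described here are 10 of the 24379 genes in the count table, taken by their symbols: the nitric oxide synthase gene Nos2, Gch1 for the first enzyme of tetrahydrobiopterin synthesis, the arginase genes Arg1 and Arg2, Ass1 and Asl for the enzymes that rebuild arginine from citrulline, Acod1, and the polyamine genes Odc1, Azin1 and Sat1. All 10 were found by Ensembl identifier, at the same mm10 coordinates as in GENCODE M21.

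The data are RNA sequencing counts of 6 libraries of RAW264.7 cells, an established mouse line with macrophage traits that was derived from a virus-induced tumour. By their labels, 3 libraries are from cells given high-fructose corn syrup (HFCS), which holds free glucose and fructose, and 3 control libraries are called WT. All samples carry a time of 18 h, and the HFCS dose reads 140 mM in titles and treatment labels but 170 mM in source names. The sources used here do not say what the control wells received. Separate cultures are not stated for the replicates, so p-values reflect only how these libraries vary, and that variation may be technical.

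Total counts were 13108485 to 15340255 in HFCS libraries and 14101303 to 14840315 in control libraries. Of 9 macrophage markers in the table, all 9 were tested, and their summed level was 2520 to 2630 CPM (counts relative to 1e+06 of the scaled library size) in HFCS libraries and 1960 to 2030 CPM in control libraries. By the test given below, 7 of these markers were higher and 2 were lower. Among all tested genes, 22.4% were higher and 22.5% lower. Cd14, which is part of that summed level, had 410 ± 38.4 CPM in HFCS libraries and 110 ± 2.64 CPM in control libraries. The lower markers were Csf1r (log2 fold change -0.67) and Cd68 (-0.42). The summed levels of T cell, B cell, neutrophil, mast cell, dendritic cell, fibroblast, epithelial, hepatocyte and endothelial markers stayed at or below 5.13 CPM in every library. The endothelial markers Pecam1 (-1.86) and Cdh5 (-1.37) were lower in HFCS libraries within that range. The part of these markers in the results below was not tested. Control replicate 1 stood apart from the other control libraries, with a chi-square over its degrees of freedom at 14 and 16.7 when set against them, while the other pairs within a group gave 2.60 to 6.64. Akr1b3, an aldose reductase gene known to be induced by hypertonic stress, had 208 ± 12 CPM in HFCS libraries and 7440 ± 381 CPM in control libraries (SD, n = 3 each). The myo-inositol transporter gene Slc5a3 and the betaine transporter gene Slc6a12, also known for that response, were lower in HFCS libraries too, with log2 fold changes of -1.94 and -1.78. These directions are opposite to what a hypertonic syrup treatment is known to give. Whether the labels fit the libraries, and whether the control medium held an osmolyte, was not tested. If the labels were exchanged, every sign below would be reversed, so the libraries are called HFCS-labelled and control-labelled. Fewer cells of a type and less RNA per cell cannot be told apart in such bulk libraries.

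Of the 10 genes, 8 had enough counts to test. Acod1, Arg2 and Odc1 were higher in the HFCS-labelled libraries, Nos2 and Sat1 were lower, and Asl, Gch1 and Azin1 did not pass. Arg1 and Ass1 were too low to test. A gene passed when edgeR's quasi-likelihood test gave it a Benjamini-Hochberg adjusted p under 0.05, taken over 14360 genes. So many genes passed it that 5 of 8 members is to be read against 44.9% of all tested genes, of which 22.4% were higher and 22.5% lower. With library sizes alone and no correction for composition, 60.2% of all calls were higher in place of 50%. Acod1 and Arg2 also passed a 2-fold limit, as did 10.6% of all tested genes, 4.24% in the higher direction and 6.40% in the lower. The HFCS-labelled and control-labelled libraries did not overlap for Acod1, Arg2, Odc1, Nos2 and Sat1, as for 54.5% of all tested genes. The median log2 fold change of the 8 members was 0.17, against 0.00 for all tested genes to 2 decimals.

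**Figure D1:**
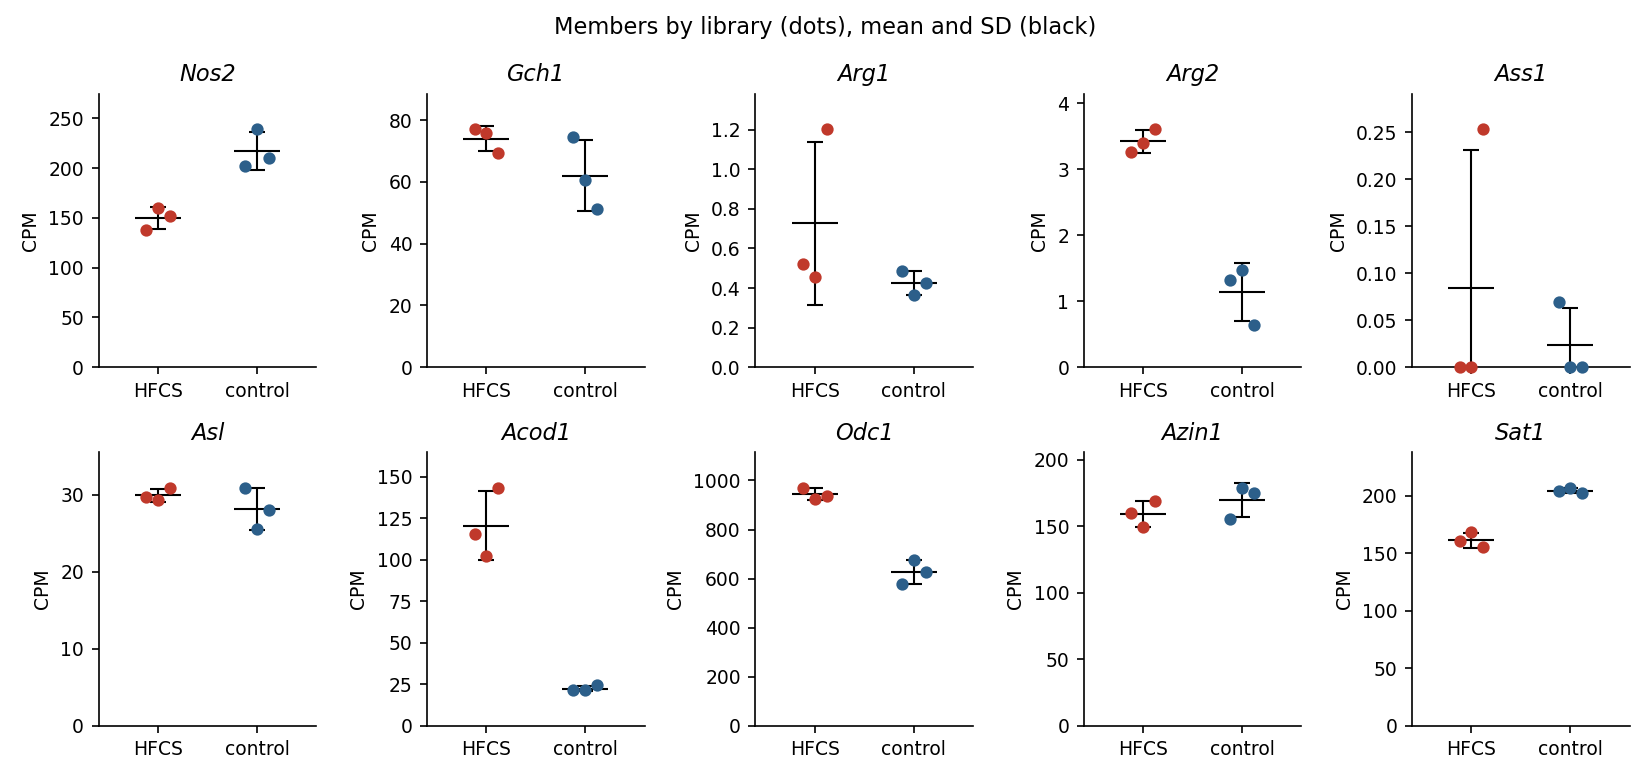
CPM (vertical axes, each from 0) of the 10 genes in the 3 HFCS-labelled and 3 control-labelled libraries. Dots are libraries, long bars are means and short bars SD, cut at 0 for Ass1. The dots of the groups lie apart for Nos2, Arg2, Acod1, Odc1 and Sat1 and overlap for the other genes, with Ass1 at 0 in 4 of 6 libraries.

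Levels per kilobase of exon set the genes in an order within each group. In the HFCS-labelled libraries Odc1 led with 277 ± 6.94 CPM per kb, followed by Sat1 (58.1 ± 2.39), Acod1 (45.9 ± 7.96), Nos2 (34.0 ± 2.48), Azin1 (25.5 ± 1.58), Gch1 (11.8 ± 0.665), Asl (6.19 ± 0.178), Arg2 (2.40 ± 0.120), Arg1 (0.326 ± 0.186) and Ass1 (0.0350 ± 0.0606), all as mean ± SD of 3 libraries. No neighbours in that order overlapped. In the control-labelled libraries the order was Odc1 (184 ± 14.8 CPM per kb), Sat1 (73.7 ± 0.800), Nos2 (49.2 ± 4.41), Azin1 (27.2 ± 2.01), Gch1 (9.93 ± 1.86), Acod1 (8.52 ± 0.616), Asl (5.82 ± 0.560), Arg2 (0.799 ± 0.311), Arg1 (0.191 ± 0.0266) and Ass1 (0.00958 ± 0.0166). There Gch1 and Acod1 overlapped, with 8.21 to 11.9 CPM per kb for Gch1 and 8.09 to 9.23 for Acod1. Per kilobase, Acod1 thus stood above Nos2 in every HFCS-labelled library and below it in every control-labelled library. In CPM, without division by exon length, Nos2 stood above Acod1 in every library. Their means in the HFCS-labelled libraries were 150 CPM for Nos2 and 120 CPM for Acod1.

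**Figure D2:**
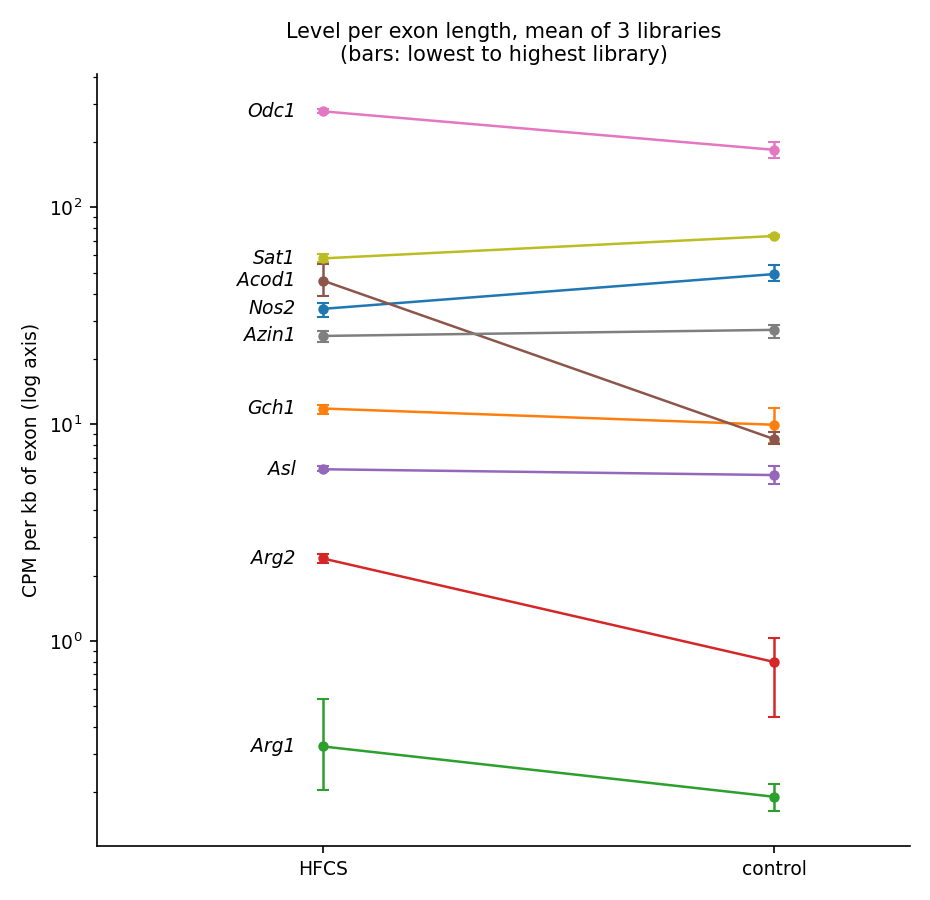
Level per kilobase of exon (log axis) of 9 of the genes in the HFCS-labelled and control-labelled libraries, as the mean of 3 libraries with bars from the lowest to the highest. Ass1 is left out because it was at 0 in 4 libraries. Acod1 has the steepest line, at 45.9 CPM per kb in HFCS-labelled libraries and 8.52 in control-labelled libraries, and crosses those of Gch1, Azin1 and Nos2.

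Nos2 was lower in the HFCS-labelled libraries. Its transcript (ENSMUSG00000020826, mm10 chromosome 11, 78920787 to 78960254, plus strand) had 138, 160 and 151 CPM in HFCS replicates 1 to 3, against 202, 239 and 210 CPM in control replicates 1 to 3. The highest HFCS-labelled library lay below the lowest control-labelled one. The log2 fold change was -0.53 ± 0.08 (SE), with an adjusted p of 4.5e-04 from edgeR's quasi-likelihood test. By the Euclidean distance of log2 CPM centred over the 6 libraries, the profiles closest to that of Nos2 among 10452 genes were those of Ssbp1 (0.0868), Sec24a (0.0968) and Mdh1 (0.104).

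Genes for tetrahydrobiopterin, the cofactor of nitric oxide synthases, moved in both directions. Gch1 (ENSMUSG00000037580, chromosome 14, 47153895 to 47189413, minus strand) had 77.1, 75.7 and 69.3 CPM in HFCS replicates 1 to 3, against 74.4, 60.6 and 51.3 CPM in control replicates 1 to 3. The groups overlapped through control replicate 1, and the log2 fold change of 0.25 ± 0.12 did not pass (edgeR adjusted p = 0.107). Without control replicate 1 it was 0.41 and passed (edgeR adjusted p = 0.00105, range over 14 alternatives 0.00105 to 0.352).

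Pts, the gene for the enzyme of the next step, rose in RNA. Pts had 116, 119 and 129 CPM in HFCS-labelled libraries and 62.0, 55.6 and 68.4 CPM in control-labelled libraries, a log2 fold change of 0.97 ± 0.09 (edgeR adjusted p = 1.3e-05). Gchfr, which encodes the regulatory protein that binds the Gch1 enzyme and mediates its feedback inhibition by tetrahydrobiopterin, fell. Its level was 5.50, 7.59 and 4.94 CPM in HFCS-labelled libraries and 17.6, 16.4 and 15.9 CPM in control-labelled libraries. The log2 fold change was -1.47 ± 0.17 (edgeR adjusted p = 6.1e-05). Qdpr, for the reductase that regenerates the cofactor after use, fell as well, with 30.4 ± 2.60 CPM in HFCS-labelled libraries and 53.6 ± 1.75 CPM in control-labelled libraries.

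Spr, for the last enzyme of cofactor synthesis, had 19.6 ± 1.64 CPM in HFCS-labelled libraries and 15.7 ± 1.05 CPM in control-labelled libraries. Its log2 fold change of 0.32 passed narrowly (edgeR adjusted p = 0.0414, range over 14 alternatives 0.0163 to 0.121). It passed in 8 of the 14 and lost its call with DESeq2 (0.0697), with upper-quartile scaling (0.0607) and without HFCS replicate 1 (0.109), HFCS replicate 3 (0.121), control replicate 2 (0.119) or control replicate 3 (0.0693). Ddah2, of the dimethylarginine hydrolase family, rose at a low level, with 5.88 ± 1.70 CPM in HFCS-labelled libraries and 2.52 ± 1.06 CPM in control-labelled libraries. Nostrin, for a protein that binds the endothelial synthase, fell by 0.49 on the log2 scale. Pcbd2, a pterin dehydratase gene, did not pass at a log2 fold change of 0.40, but passed without control replicate 1 (edgeR adjusted p = 0.00610, range 0.00610 to 0.311). Cyb5r3, a reductase gene, was at -0.21 and did not pass (0.0600, range 0.0153 to 0.228), but did without control replicate 2 and with upper-quartile scaling.

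Of the 20 listed nitric oxide and tetrahydrobiopterin genes, 17 were tested, of which 3 rose and 4 fell, with a median log2 fold change of 0.05. That is 41.2% called, against 44.9% of all tested genes (22.4% higher, 22.5% lower). The synthase genes Nos1 and Nos3 did not pass. Nos1 had 11.1 ± 0.876 CPM in HFCS-labelled libraries and 9.24 ± 0.265 CPM in control-labelled libraries. Nos3 had 0.927 ± 0.242 and 1.33 ± 0.121 CPM in HFCS-labelled libraries and control-labelled libraries, and its exons share bases with those of Atg9b on the other strand.

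Among the genes that use arginine or rebuild it, Arg2 rose while its relative Arg1 was hardly counted. Arg2 (ENSMUSG00000021125, chromosome 12, 79130777 to 79156301, plus strand), the mitochondrial arginase gene, was counted 44, 52 and 57 times in HFCS replicates 1 to 3, against 19, 20 and 9 times in control replicates 1 to 3. That is 3.43 ± 0.171 CPM in HFCS-labelled libraries and 1.14 ± 0.444 CPM in control-labelled libraries, a log2 fold change of 1.58 ± 0.31 (edgeR adjusted p = 0.00192). Control replicate 3 lay below the other control-labelled libraries, at 0.635 CPM against 1.32 and 1.47 CPM. Arg2 shares 285 exon bases with Vti1b and 116 with Gm48780, both on the opposite strand. Vti1b had 113 ± 15.2 CPM in HFCS-labelled libraries and 78.6 ± 8.38 CPM in control-labelled libraries, and Gm48780 had 2.38 ± 0.627 and 0.929 ± 0.415 CPM in HFCS-labelled libraries and control-labelled libraries. The strand setting of the counting is not given, so reads of these genes cannot be told apart where they overlap, and their part in the Arg2 result was not tested.

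Arg1 (ENSMUSG00000019987, chromosome 10, 24915221 to 24927484, minus strand), the cytosolic arginase gene and a marker of alternatively activated mouse macrophages, was counted 7, 7 and 19 times in HFCS-labelled libraries and 7, 5 and 6 times in control-labelled libraries. HFCS replicate 3 held most of the counts, and the other HFCS-labelled libraries lay within or next to the range of the control-labelled ones. Ass1 (ENSMUSG00000076441, chromosome 2, 31470207 to 31520672, plus strand), for the enzyme that joins citrulline to aspartate, was counted 0, 0 and 4 times in HFCS-labelled libraries and 1, 0 and 0 times in control-labelled libraries. A count of 0 allows up to 0.196 to 0.223 CPM in the HFCS-labelled and 0.212 to 0.220 CPM in the control-labelled libraries concerned, for counting error only. No difference was detectable at this depth for either gene.

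Asl (ENSMUSG00000025533, chromosome 5, 130011258 to 130029247, minus strand), for the lyase that releases arginine in the following step, was expressed throughout. It had 29.6, 29.2 and 30.9 CPM in HFCS replicates 1 to 3, against 30.9, 25.5 and 27.9 CPM in control replicates 1 to 3. The groups overlapped, and the log2 fold change of 0.09 ± 0.10 did not pass (edgeR adjusted p = 0.492).

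Of 19 listed arginine and urea cycle genes, 11 were tested, of which 3 rose and 4 fell, with a median log2 fold change of -0.07. That is 63.6% called, against 44.9% of all tested genes (22.4% higher, 22.5% lower). Slc7a1, for the cationic amino acid transporter that carries arginine into most cells, rose, with 276 ± 17.5 CPM in HFCS-labelled libraries and 193 ± 4.93 CPM in control-labelled libraries (log2 fold change 0.52 ± 0.07, edgeR adjusted p = 1.6e-04). Slc7a2, Otc and Cps1 were not analysed here. Oat, for the enzyme that takes ornithine towards proline and glutamate, fell, with 46.3 ± 2.52 CPM in HFCS-labelled libraries and 66.5 ± 4.02 CPM in control-labelled libraries. Pycr1, for a reductase of the last step of proline synthesis, was at -0.15 and did not pass. The creatine synthesis genes Gatm (-0.33) and Gamt (-0.88) fell, though the call for Gamt was lost without HFCS replicate 1 (edgeR adjusted p = 0.0522, range over alternatives 0.00974 to 0.0522). Aldh18a1, for the enzyme that makes the common precursor of proline and ornithine, was at -0.20 (edgeR adjusted p = 0.0224, range 0.0104 to 0.151) and lost its call without HFCS replicate 1, HFCS replicate 2 or control replicate 3, with library sizes alone and with no filter. Slc25a15, the mitochondrial ornithine carrier gene, did not pass, at a log2 fold change of 0.06.

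**Figure D3:**
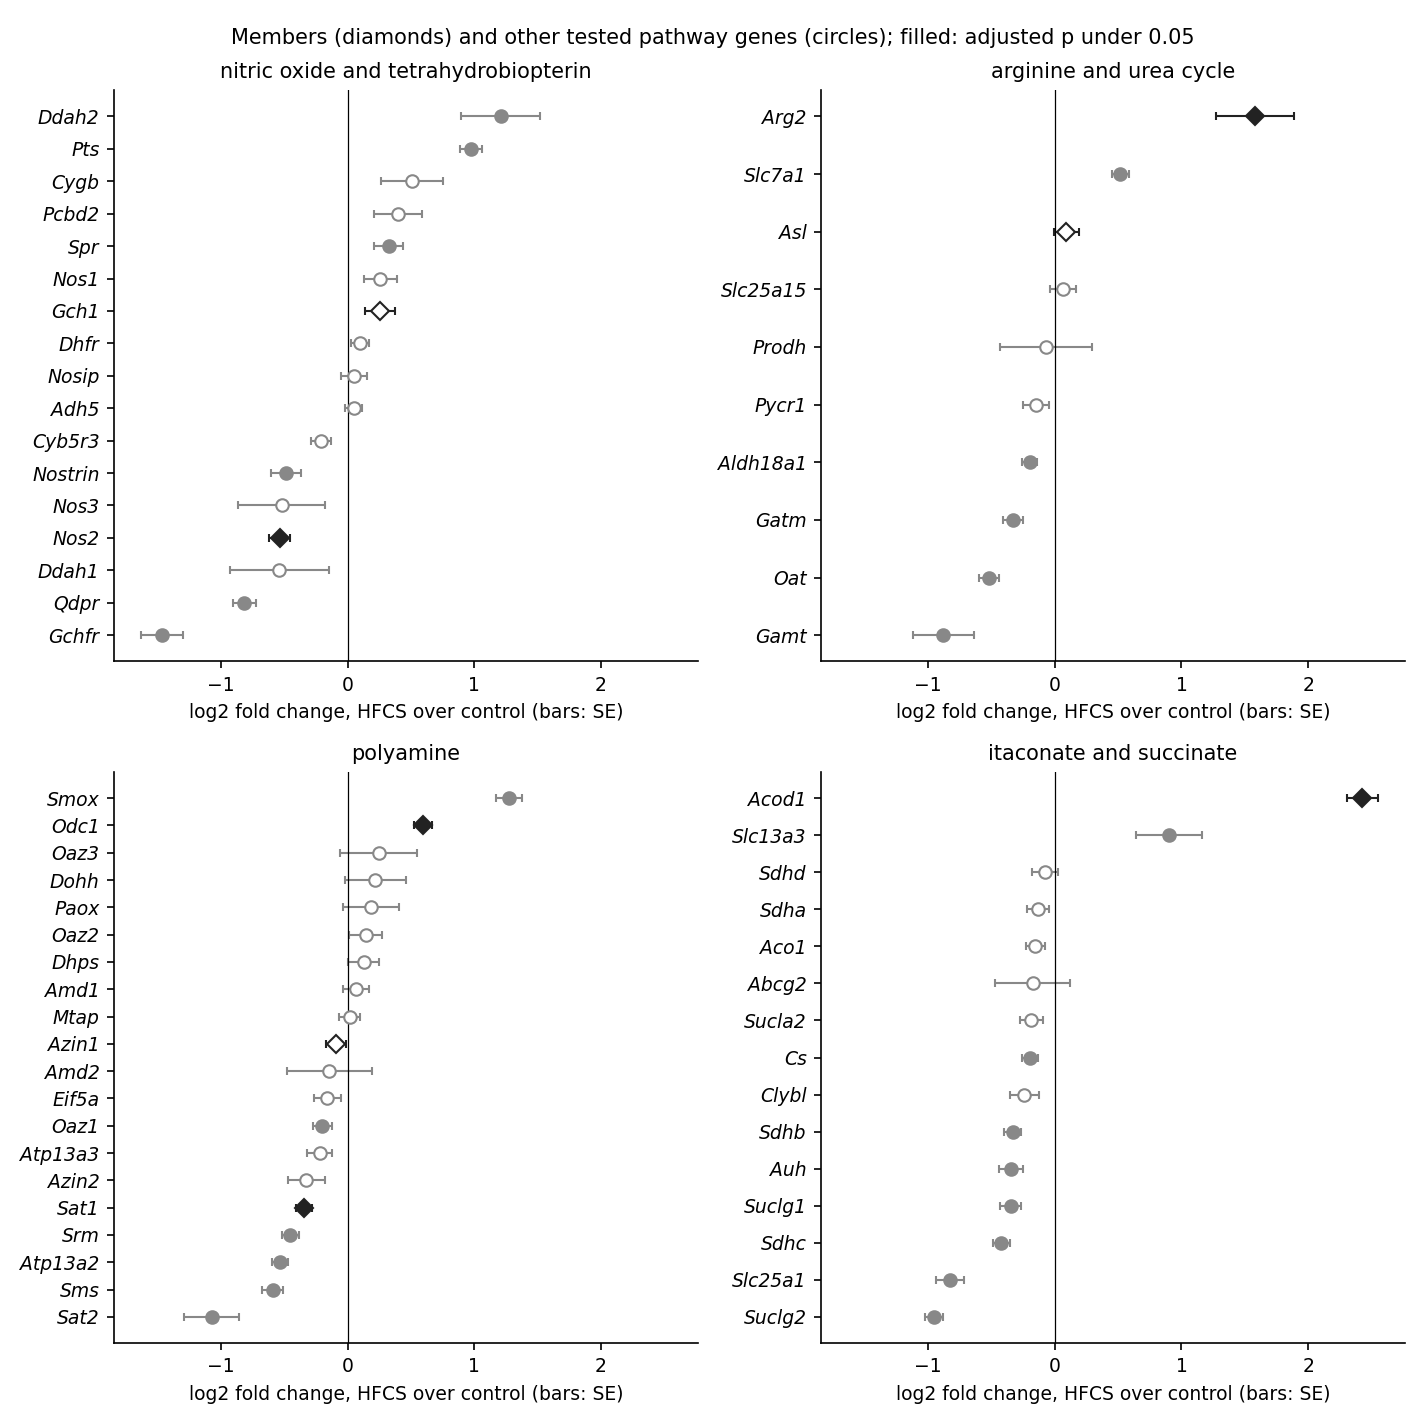
Log2 fold change, HFCS over control, with SE for tested genes of the 4 pathway lists. Diamonds are the members and circles the other genes, filled where the adjusted p was under 0.05. Acod1 (2.43) and Arg2 (1.58) lie farthest to the right among the members, and Gchfr (-1.47), Sat2 (-1.07) and Suclg2 (-0.95) are among the genes farthest to the left.

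Acod1 had the highest fold change of the 10 genes. The gene (ENSMUSG00000022126, chromosome 14, 103046977 to 103056573, plus strand) had 115, 102 and 143 CPM in HFCS replicates 1 to 3, against 21.2, 21.7 and 24.2 CPM in control replicates 1 to 3. HFCS replicate 3 was the highest and all HFCS-labelled libraries were far above the control-labelled ones. The log2 fold change was 2.43 ± 0.12 (edgeR adjusted p = 3.0e-07), a 5.38-fold difference that ranked 197 by size among the 14360 tested genes. The profiles closest to it by the same distance were those of Rab20 (0.307), Anxa3 (0.342) and Trib3 (0.430). The start region of Acod1 is shown because its RNA differed the most, with that of Gch1 for comparison on the same chromosome. Both are RefSeq windows on GRCm38.p6 of 250 bases before to 50 after the start, written 5′ to 3′ on the gene's strand, with motif matches in capitals.
Acod1, chr14:103046762-103047061, plus strand: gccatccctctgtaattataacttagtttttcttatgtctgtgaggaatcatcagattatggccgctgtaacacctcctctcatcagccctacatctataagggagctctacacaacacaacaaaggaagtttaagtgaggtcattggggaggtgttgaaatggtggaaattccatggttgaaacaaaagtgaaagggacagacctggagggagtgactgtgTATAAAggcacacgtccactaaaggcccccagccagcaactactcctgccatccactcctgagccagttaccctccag
Gch1, chr14:47189364-47189663, minus strand: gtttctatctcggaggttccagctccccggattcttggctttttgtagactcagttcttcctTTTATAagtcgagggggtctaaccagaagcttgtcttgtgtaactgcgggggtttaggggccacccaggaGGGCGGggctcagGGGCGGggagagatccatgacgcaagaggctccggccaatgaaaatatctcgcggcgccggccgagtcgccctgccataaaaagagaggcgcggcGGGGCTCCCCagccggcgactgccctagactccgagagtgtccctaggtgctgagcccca

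The RefSeq start of Acod1 lies 35 bases inside the gene as the count table places it. Both strands were searched for 10 motifs: the TATA box (TATAAA), NF-kB (GGGR, NW, YYCC), GAS (TTCNNNGAA), ISRE (GAAA, NN, GAAA), AP-1 (TGANTCA), C/EBP (TTNNGNAAT), the E-box (CACGTG), the GC box (GGGCGG), CRE (TGACGTCA) and the antioxidant response element (TGACNNNGC). Here R is A or G, W is A or T, Y is C or T and N is any base. A stretch that differed from a motif at any base was not counted, so near matches are not excluded. The only match in the Acod1 window was a TATA box whose first base is at position -28 relative to the start. Among 32817 promoter windows of the same length, 13.6% hold a TATA box match. The Gch1 window held an NF-kB match, GGGGCTCCCC at position -10, which 4.50% of the windows have, beside 2 GC boxes and a TATA box match on the other strand at position -188. None of the listed matches overlapped another. Shares of all windows were 8.29% for GAS, 3.43% for ISRE, 7.81% for AP-1, 11.5% for C/EBP, 7.15% for the E-box, 35.6% for the GC box, 1.79% for CRE and 12.4% for the antioxidant response element. These matches describe letters only.

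In the itaconate and succinate list Acod1 rose, while most genes that passed the test fell. Of 17 listed genes, 16 were tested, and Acod1 and Slc13a3 rose while 8 fell, with a median log2 fold change of -0.22. That is 62.5% called, against 44.9% of all tested genes (22.4% higher, 22.5% lower). With 1 library left out, 7 to 11 genes of the list passed. The mitochondrial citrate carrier gene Slc25a1 fell, with 30.2 ± 3.06 CPM in HFCS-labelled libraries and 53.5 ± 6.18 CPM in control-labelled libraries. Suclg2, for a subunit of the GTP-forming succinyl-CoA ligase, had 50.8, 53.7 and 54.5 CPM in HFCS-labelled libraries and 102, 108 and 98.2 CPM in control-labelled libraries (log2 fold change -0.95 ± 0.07, edgeR adjusted p = 4.3e-06).

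Of the succinate dehydrogenase subunits, Sdhb (-0.33) and Sdhc (-0.42) fell and Sdha (-0.13) and Sdhd (-0.08) did not pass. Suclg1, for the shared subunit of the succinyl-CoA ligases, fell by 0.35 on the log2 scale. Auh, for a mitochondrial hydratase of leucine breakdown, was at -0.35 and lost its call without HFCS replicate 3 (edgeR adjusted p = 0.0588, range 0.00457 to 0.0588). Clybl, for the citramalyl-CoA lyase of itaconate breakdown, did not pass, with 11.7 ± 0.527 CPM in HFCS-labelled libraries and 13.8 ± 0.332 CPM in control-labelled libraries. Slc13a3, for a sodium-coupled dicarboxylate carrier, had 2.92 ± 0.411 CPM in HFCS-labelled libraries and 1.56 ± 0.207 CPM in control-labelled libraries, a log2 fold change of 0.90 (edgeR adjusted p = 0.0159, range 0.0103 to 0.0550), and did not pass without HFCS replicate 2, HFCS replicate 3 or control replicate 2.

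The polyamine genes Odc1, Sat1 and Azin1 gave a rise, a fall and no call. Odc1 (ENSMUSG00000011179, chromosome 12, 17544794 to 17551505, plus strand) encodes ornithine decarboxylase, which makes putrescine, and was the most abundant of the 10 genes, with only 0.696% of all tested genes at a higher mean CPM. It had 970 CPM in HFCS replicate 1, 925 in replicate 2 and 936 in replicate 3, and 577, 677 and 625 CPM in control replicates 1 to 3. The lowest HFCS-labelled library lay above the highest control-labelled one, and the log2 fold change was 0.59 ± 0.07 (edgeR adjusted p = 9.3e-05). Sat1 (ENSMUSG00000025283, chromosome X, 155213132 to 155216449, minus strand), for the acetyltransferase that marks spermidine and spermine for export and breakdown, had 160, 168 and 155 CPM in HFCS-labelled libraries and 204, 207 and 203 CPM in control-labelled libraries. The libraries of each group lay close together and the groups apart, with a log2 fold change of -0.34 ± 0.06 (edgeR adjusted p = 0.00119). Azin1 (ENSMUSG00000037458, chromosome 15, 38487427 to 38519266, minus strand), whose product resembles ornithine decarboxylase and protects it by binding antizyme, had 160, 149 and 169 CPM in HFCS-labelled libraries and 155, 179 and 175 CPM in control-labelled libraries. These overlapped, and the log2 fold change of -0.09 ± 0.08 did not pass (edgeR adjusted p = 0.355). Azin1 shares 358 exon bases with Gm49077, for which 8 reads were counted in all HFCS-labelled libraries and 38 in all control-labelled ones.

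Start windows were available for only 5 of the 10 genes, namely Acod1, Ass1, Gch1, Odc1 and Sat1. Of these, the start regions of Odc1 and Sat1 are shown because these genes passed in opposite directions. The conventions and motifs are the same as above. The RefSeq start of Odc1 lies 79 bases inside the gene as the count table places it.
Odc1, chr12:17544623-17544922, plus strand: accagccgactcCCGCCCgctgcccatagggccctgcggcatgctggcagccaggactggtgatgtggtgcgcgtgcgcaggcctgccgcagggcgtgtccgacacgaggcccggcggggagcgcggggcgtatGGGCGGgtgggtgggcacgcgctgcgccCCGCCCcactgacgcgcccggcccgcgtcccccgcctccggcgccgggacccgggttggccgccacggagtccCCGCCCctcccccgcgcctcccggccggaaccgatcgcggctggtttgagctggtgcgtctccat
Sat1, chrX:155216400-155216699, minus strand: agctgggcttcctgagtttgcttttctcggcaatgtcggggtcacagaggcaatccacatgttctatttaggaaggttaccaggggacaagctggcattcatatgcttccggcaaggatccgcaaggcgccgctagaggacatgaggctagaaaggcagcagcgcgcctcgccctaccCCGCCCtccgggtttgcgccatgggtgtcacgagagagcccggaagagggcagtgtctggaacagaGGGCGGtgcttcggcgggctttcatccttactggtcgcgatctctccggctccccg
Of the 10 motifs only the GC box was matched in these windows, 4 times for Odc1 and 2 times for Sat1. GC content was 78.0% for Odc1 and 60.3% for Sat1, against 47.0% for Acod1. The window of Ass1 held 1 GC box and 1 E-box.

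Among 22 listed polyamine genes, 20 were tested, of which 2 rose and 6 fell, with a median log2 fold change of -0.12. That is 40% called, against 44.9% of all tested genes (22.4% higher, 22.5% lower). Smox, for spermine oxidase, which turns spermine back into spermidine, rose. It had 111, 118 and 98.4 CPM in HFCS-labelled libraries and 51.7, 42.0 and 41.8 CPM in control-labelled libraries, a log2 fold change of 1.27 ± 0.10 (edgeR adjusted p = 7.0e-06). The synthase genes of the steps after Odc1 fell. Srm, for spermidine synthase, had 80.1 ± 2.63 CPM in HFCS-labelled libraries and 109 ± 1.72 CPM in control-labelled libraries, and Sms, for spermine synthase, had 78.6 ± 7.45 CPM in HFCS-labelled libraries and 118 ± 4.71 CPM in control-labelled libraries. Log2 fold changes were -0.45 ± 0.06 for Srm and -0.59 ± 0.08 for Sms (edgeR adjusted p = 2.8e-04 and 2.0e-04). Atp13a2, for a lysosomal polyamine exporter, fell by 0.53 on the log2 scale, and Sat2, a relative of Sat1, fell by 1.07 at a low level of 2.38 ± 0.150 CPM in HFCS-labelled libraries and 5.01 ± 0.872 CPM in control-labelled libraries.

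Genes for antizyme, the protein that sends ornithine decarboxylase to the proteasome, gave no firm call. Oaz1 had 285 ± 18.5 CPM in HFCS-labelled libraries and 328 ± 22.4 CPM in control-labelled libraries, a log2 fold change of -0.20 at edgeR adjusted p = 0.0481 (range over alternatives 0.0175 to 0.223), and the call was lost when any 1 of the 6 libraries was left out, with library sizes alone and with no filter on low counts. Oaz2 was at 0.14 and did not pass, except without control replicate 1 (edgeR adjusted p = 0.00151, range 0.00151 to 0.818). Amd1, for the decarboxylase that supplies the aminopropyl groups, did not pass, at 0.07, and it has a close copy, Amd2, with which it may share reads. Azin2 (-0.33) did not pass, nor did Atp13a3 (-0.22), which passed without HFCS replicate 3 (edgeR adjusted p = 0.0392) or control replicate 1 (0.00262, range 0.00262 to 0.308).

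Ratios of counts within a library, which need no scaling between libraries, set the members against each other. The ratio of Acod1 to Nos2 counts was 0.836, 0.640 and 0.946 in HFCS replicates 1 to 3, against 0.105, 0.0905 and 0.115 in control replicates 1 to 3, a 7.73-fold difference between the geometric means. The ratio of Arg2 to Nos2 was 0.0237, 0.0213 and 0.0238 in HFCS-labelled libraries and 0.00652, 0.00614 and 0.00302 in control-labelled libraries. For these pairs every HFCS-labelled library lay above every control-labelled one. The ratio of Sat1 to Odc1 was 0.165, 0.182 and 0.166 in HFCS-labelled libraries and 0.354, 0.306 and 0.324 in control-labelled libraries, and that of Azin1 to Odc1 was 0.165, 0.161 and 0.181 in HFCS-labelled libraries and 0.270, 0.264 and 0.280 in control-labelled libraries. For both, every HFCS-labelled library lay below every control-labelled one. The ratio of Azin1 to Oaz1 was 0.536, 0.507 and 0.640 in HFCS-labelled libraries and 0.440, 0.561 and 0.561 in control-labelled libraries, which overlapped. Of the 5 ratios, 4 had a two-sided exact permutation p of 0.1, the smallest that 3 libraries against 3 can give (0.125 adjusted over the 5), and Azin1 to Oaz1 had 0.6. None can therefore pass 0.05 in this design. A ratio of Ass1 to Asl had no value because Ass1 was at 0 in 4 libraries.

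**Figure D4:**
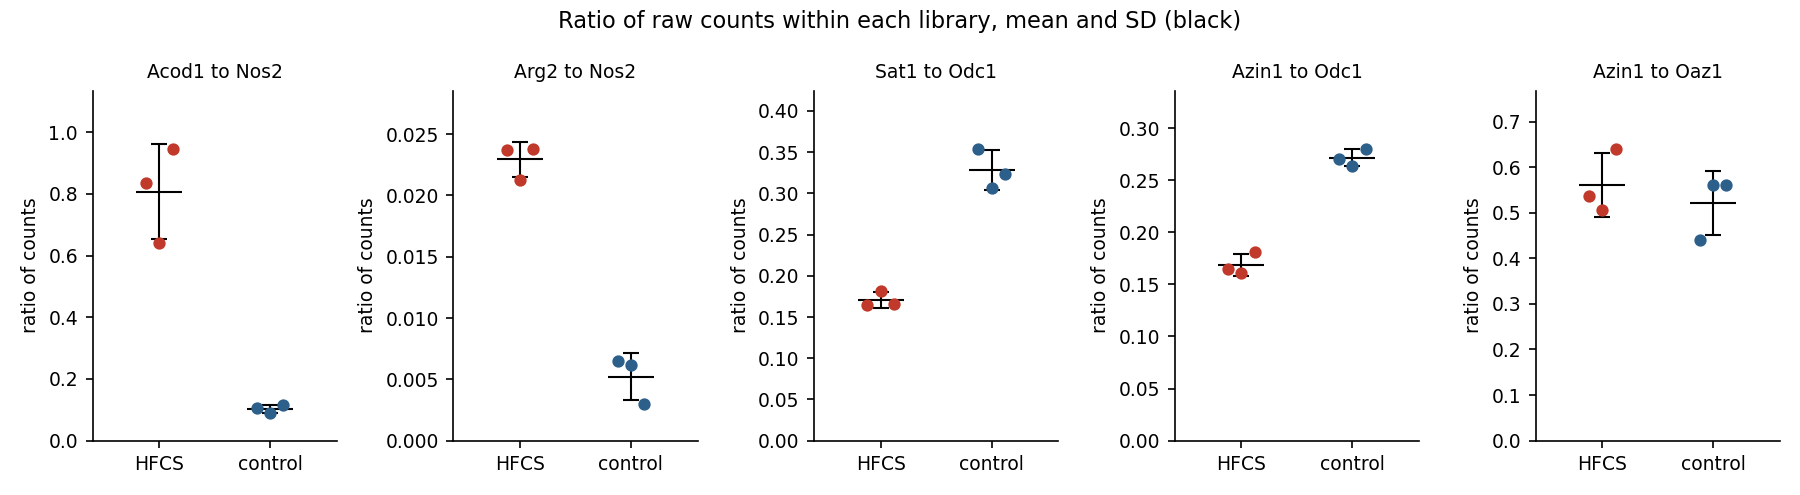
Ratio of raw counts within each library for 5 pairs of genes, in the HFCS-labelled and control-labelled libraries. Dots are libraries, long bars are arithmetic means and short bars SD. The groups lie apart for 4 pairs, Acod1 to Nos2 most widely with 0.640 to 0.946 in HFCS-labelled libraries and 0.0905 to 0.115 in control-labelled libraries, and overlap for Azin1 to Oaz1.

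Of 16 listed genes for transcription factors known to act on these genes, 15 were tested, 9 rose and 3 fell, with a median log2 fold change of 0.38, where 22.4% of all tested genes rose and 22.5% fell. The NF-kB subunit genes Nfkb1 (1.09) and Rela (0.90) rose, as did the C/EBP genes Cebpb (0.74) and Cebpd (1.26), whose exons share bases with Tmem189 and Spidr on the other strand. Klf4, a zinc finger factor known from alternative activation, rose by 1.53. Myc rose by 0.84, and the gene of its partner Max (-0.37) fell. Hif1a had 171 ± 17.9 CPM in HFCS-labelled libraries and 347 ± 48.0 CPM in control-labelled libraries and fell by 1.02 on the log2 scale. Its exons share 330 bases with Gm15283 on the other strand. Whether any of these took part in the changes of the members was not tested.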

How the data were processed

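Per the submitters' processing notes, CASAVA, HISAT2 2.0.5 and featureCounts 1.5.0-p3 were used on mm10, with no role or order. The authors deposited a table of raw counts, one whole number per gene and library, without normalisation. For annotation release, strand setting and filters, no source used here gives an answer. Symbols came from a gene name list, and from GENCODE M21 where that list had none. GENCODE M21 held 24369 of 24379 identifiers, and exon lengths are its merged exons.

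Genes were kept by edgeR's filterByExpr (minimum count 10), which left 14360, and scaled by TMM over the counts of the genes kept. HFCS was compared with control by glmQLFit and glmQLFTest (edgeR 4.0.16, R 4.3.3), with no covariate. Each SE was derived from the fold change and its F statistic. The fit was tested on simulated data. Floors for a count of 0 are 3 counts and cover counting error only.

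Beside the 10 members, the text names the genes of lowest adjusted p in each pathway list (up to 8), direct partners of the members, and 3 genes with the profiles most like those of Nos2 and Acod1 (log2 CPM, prior count 2, mean of at least 5 CPM). Members and lists were chosen with earlier results of these data known. Some genes are counted in the lists but not reported here. Alternatives were other scalings and filters, DESeq2 1.42.0, limma-voom (limma 3.58.1), the replicate number as a block and each library left out in turn. Same-numbered libraries deviated with correlations of 0.167, -0.0640 and 0.191, so the numbers were not taken to pair them.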

Additional observations from a re-analysis of the deposited data

How the results depend on the processing

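Over 14 alternatives, the 8 tested members gave 112 values, of which 108 kept their call and 4 gained one, all for Gch1, and 0 changed direction past the threshold. Gch1 passed with library sizes alone (log2 fold change 0.33, edgeR adjusted p = 0.0395), with no filter on low counts (0.29, 0.0440), with replicate number as a block (0.27, 0.0131) and without control replicate 1 (0.41, 0.00105). Its range over all 14 was 0.00105 to 0.352, and the cause was not tested. The number of members that passed was 5 or 6 in each. The count over all genes was 7550 without control replicate 1 and 5115 to 5621 without any other single library. It was 6058 with DESeq2 and 7152 under that block. Same-numbered libraries did not all deviate together, so the block is given only here. Cyb5r3 passed under the block as well (edgeR adjusted p = 0.0312), as did Pcbd2 (0.0312) and Atp13a3 (0.0203). Among 71 other pathway genes, 9 lost their call at least once and 10 gained one. The log2 ratio differences of the member pairs moved by less than 1 SD between libraries, and that of Azin1 to Oaz1, which overlapped between groups, was -0.01 to 0.18 with 1 library left out. Arg1, Arg2 and Ass1 are limited by counts of at most 57 per library.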
